A study of Rattus norvegicus with 18 samples.

Results

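DNA repair genes were followed through tumours and cultures of the 9L rat glioma under low and normal oxygen. A list of 50 genes in 8 repair routes was drawn up by function. Of these, 38 are measured by a probe set that carries exactly 1 gene symbol in the platform's annotation, among 14324 such genes. The routes hold 10 of 14 listed genes of homologous recombination, 3 of 6 of the Fanconi pathway, 6 of 7 of break sensing and checkpoint, 2 of 2 of mismatch repair, 4 of 5 of end joining, 8 of 8 of base excision and single-strand break repair, 4 of 7 of nucleotide excision repair, and 1 of 1 of direct reversal. The other 12 (Rad51b, Xrcc3, Blm, Wrn, Fancg, Fancl, Fanci, Atr, Prkdc, Ddb2, Ercc2 and Ercc5) were not analysed here. Each of the 38 genes had 1 probe set, and none shared a probe set.

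The study set expression in hypoxic tumour tissue beside that in hypoxic cultures. The first group, hypoxic tumour regions, and its partner, normoxic tumour regions, hold 3 arrays each, 1 of each kind from tumours 1, 2 and 3. The tumours grew in male F344/Ncr rats of 6 weeks from pieces of passaged 9L tumour tied to the epigastric vessels. Regions were cut out by laser capture microdissection as positive or negative for EF5, a drug that is retained in cells at low oxygen. The remaining 12 arrays are 9L cultures held for 16 h at 0.2% oxygen (hypoxic) or 20% oxygen (normoxic), and for 6 h at 0.2% or 20% oxygen, with 3 arrays a group, numbered 22, 28 and 29 at 16 h and 6, 13 and 26 at 6 h. Each group descends from the 1 cell line, and the captured regions hold the host's cells as well. RNA was amplified from small amounts and hybridised to Rat Gene 1.0 ST arrays, and values are log2 probe set levels.

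Cells mend DNA by separate routes. Homologous recombination copies an intact sister strand and works after replication, with the Fanconi pathway beside it at crosslinks, whereas end joining rejoins broken ends at any stage of the cycle. Base and nucleotide excision cut out damaged bases, mismatch repair corrects copying errors, and direct reversal removes an alkyl group without cutting. In tumour cell lines, low oxygen is known to lower the transcripts of several recombination genes, and genes of this route are commonly transcribed together with genes of DNA replication.

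The hypoxia marker Car9 was higher in hypoxic samples of the tumours and at both culture times. Car9, a carbonic anhydrase and textbook target of the hypoxia-inducible factor HIF, differed between hypoxic and normoxic samples by 1.94 ± 0.19 in tumours, 1.54 ± 0.19 at 16 h and 1.60 ± 0.19 at 6 h (log2 difference ± SE, n = 3 a group). Both culture differences passed the test, limma's on all 27363 probe sets with Benjamini-Hochberg adjustment, for which an adjusted p of 0.05 was the threshold. In tumours the adjusted p of Car9 was 0.141. Vegfa, the other HIF target planned as a check, differed by 1.04 ± 0.31 at 6 h and did not pass (limma adjusted p = 0.607). Its differences in tumours and at 16 h were also above 0, and in tumours limma called 0% of all genes. Of 7 measured 9L glioma and gliosarcoma markers, Vim, Sox2, Cd44 and Sparc lay above the array median in all 18 arrays and Nes in 6 of 6 tumour and 10 of 12 culture arrays, while Gfap and S100b did so in none. Correlations between arrays of a group were 0.937 to 0.964 for tumour regions and 0.988 to 0.996 for cultures. One tumour array, normoxic tumour 3, resembled the cultures more than the rest did, as its correlation with their normoxic mean was 0.941 and that of the other 5 was 0.865 to 0.892. The hypoxic 16 h culture 28 stood apart among cultures, at 0.984 against 0.992 or more for the others. The labels do not say whether numbered cultures were grown separately, so the p-values for cultures rest on a spread between arrays that may be technical.

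Promoter sequences from RefSeq (rat build GRCr8) were available for 33 of the 38 genes and 5 are shown, because several homologous recombination genes, Fancd2 and Chek1 had the most negative differences in hypoxic tumour regions. Each window searched runs from 250 bases before to 50 bases after the start that the RefSeq table lists. The E2F-like motif was taken as TTTCCCGC, TTTCGCGC, TTTGGCGC or TTTGCCGC on either strand. It occurred in 6 of 33 windows (18.2%), those of Atm, Chek1, Fancc, Fancd2, Rad51d and Ung, against 3.09% of 11806 promoters of genes on the array. E2F factors are known for regulating genes of DNA replication and S phase. Below are 150 bases of 5 promoters, from 130 before to 20 after the listed start, 5′ to 3′ along the gene's strand, with the E2F-like letters in capitals. Chek1 and Fancd2 carry it and were among the lowest in hypoxic tumour regions, Rad51d carries it and was not, and Rad54l and Exo1 were among the lowest without it in this window. Of the genes not shown, Rad51c and Brca2 were the lowest and have no match in the window searched. Atm and Fancc carry it and had negative differences close to that of Chek1. Ung carries it and was higher in the hypoxic region of each tumour.
Chek1: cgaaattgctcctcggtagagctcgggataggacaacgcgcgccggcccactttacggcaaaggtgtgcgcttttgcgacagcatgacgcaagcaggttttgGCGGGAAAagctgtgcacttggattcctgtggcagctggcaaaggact
Fancd2: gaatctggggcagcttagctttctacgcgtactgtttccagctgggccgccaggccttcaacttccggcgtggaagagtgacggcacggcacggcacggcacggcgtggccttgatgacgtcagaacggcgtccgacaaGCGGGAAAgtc
Rad51d: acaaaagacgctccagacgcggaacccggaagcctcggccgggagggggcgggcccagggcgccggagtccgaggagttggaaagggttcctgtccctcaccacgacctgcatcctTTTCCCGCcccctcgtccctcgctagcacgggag
Rad54l: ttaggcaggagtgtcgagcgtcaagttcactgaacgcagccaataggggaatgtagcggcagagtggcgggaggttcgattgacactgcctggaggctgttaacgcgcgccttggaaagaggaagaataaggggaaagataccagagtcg
Exo1: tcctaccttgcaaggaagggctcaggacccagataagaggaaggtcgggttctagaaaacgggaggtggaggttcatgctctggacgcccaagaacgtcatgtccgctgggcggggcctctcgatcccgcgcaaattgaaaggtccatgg
They lie at chr8:44629824-44629973 (minus strand), chr4:148234578-148234727 (plus), chr10:68321883-68322032 (minus), chr5:134841752-134841901 (minus) and chr13:90341888-90342037 (plus), in the order printed. Counted from the listed start, the motif spans bases -28 to -21 in Chek1, 10 to 17 in Fancd2 and -14 to -7 in Rad51d. These starts lie 24, 75, 100, 50 and 71 bases inside the annotated gene in the same order, so some letters before the listed start lie inside the annotated gene. Of the other motifs, CCAAT and TTTGAA or TTCGAA were close to the array's share, and the hypoxia response element core was above it. CCAAT on either strand was in 39.4% of the 33 windows against 38.3%, TTTGAA or TTCGAA (a motif of cell cycle genes) in 15.2% against 16.8%, and the hypoxia response element core, ACGTG or GCGTG, in 78.8% against 52.1%. A match is a stretch of letters, not a bound site.

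In hypoxic tumour regions, transcripts of several homologous recombination genes, the Fanconi gene Fancd2 and the checkpoint kinase gene Chek1 had the most negative differences from the paired normoxic regions, but no repair gene passed the test. limma called 0 of 38 genes, against 0% of all genes, and the smallest adjusted p among them was 0.261 (Rad51c). At an unadjusted p under 0.05 there were 7 genes, all lower (18.4% of 38), against 7.06% of all genes lower and 3.27% higher. The median difference over the 38 genes was -0.26, against 0.08 over all genes, and 24 of 38 lay below 0. The all-gene difference depended on mean level over the 18 arrays. In quartiles of that level, chosen after the data were seen, the all-gene medians were 0.16, 0.14, 0.02 and -0.17 from dim to bright. Most repair genes lay in the brighter quartiles. The 24 in the third had a median of -0.18, and the 9 in the brightest had -0.46. As the arrays measure bulk RNA, fewer cells of a type and less RNA per cell cannot be told apart.

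**Figure D1:**
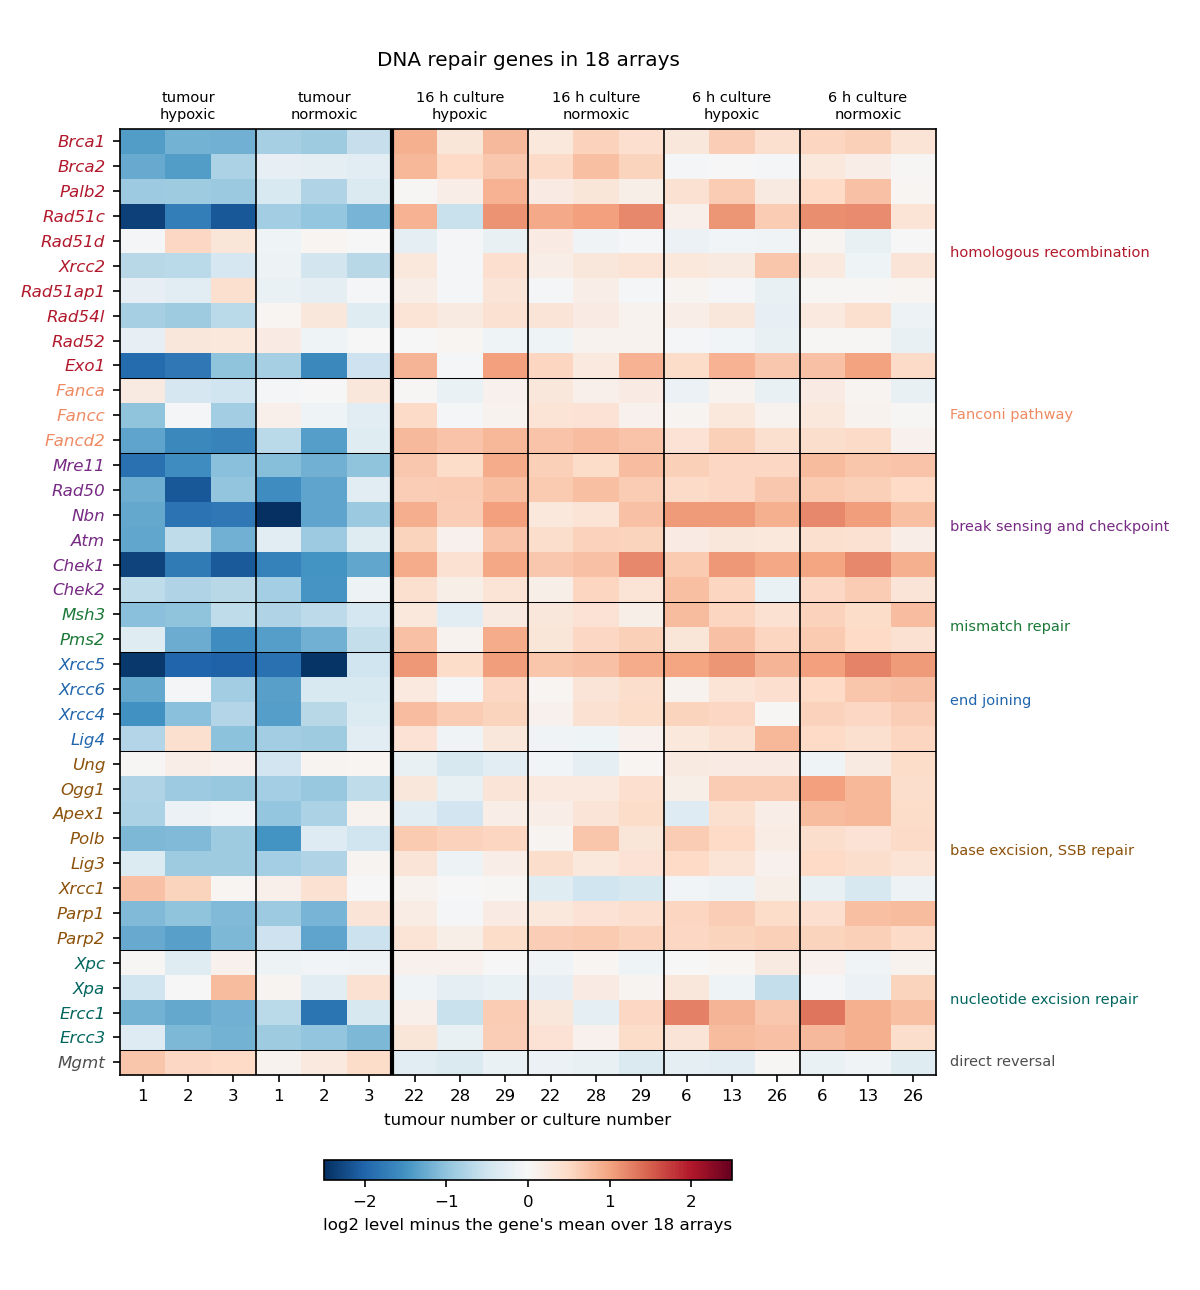
Heat map of the 38 repair genes (rows, by route) in 18 arrays (columns, by group and number). Colour gives each gene's log2 level minus its own mean over the 18 arrays, cut at 2.5 either way. Most rows are blue in the 6 tumour columns and pale red in the 12 culture columns, and Mgmt and Xrcc1 show the opposite. Within the tumours, Brca2, Rad51c and Rad54l are bluer in the hypoxic columns.

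Homologous recombination had a median difference of -0.45, with 7 of 10 genes below 0 and 5 of the 7 genes named above. Rad51c, a gene of strand exchange in this route, read 5.30, 5.90 and 5.51 in hypoxic regions (tumours 1, 2 and 3, as in all tumour values here), against 6.77, 6.67 and 6.46 in normoxic regions. The fitted difference was -1.06 ± 0.21 (SE, n = 3 pairs), the most negative of the 38. Brca2, a breast cancer susceptibility gene needed for homologous recombination, read 7.0, 6.86 and 7.47 in hypoxic regions and 8.05, 8.02 and 8.0 in normoxic regions, a difference of -0.91 ± 0.21. The normoxic values lay close together and above each hypoxic one. For Rad54l, a motor protein of strand exchange, the values were 6.51, 6.46 and 6.67 in hypoxic and 7.39, 7.63 and 7.03 in normoxic regions, a difference of -0.81 ± 0.22. Brca1, which promotes resection of broken ends, read 6.53, 6.75 and 6.71 in hypoxic regions and 7.08, 7.03 and 7.36 in normoxic regions and differed by -0.49 ± 0.19. In these 4 genes all hypoxic arrays lay below all normoxic arrays. Exo1, a nuclease that resects ends, read 5.97, 6.11 and 6.89 in hypoxic and 7.08, 6.29 and 7.39 in normoxic regions (-0.60 ± 0.24), lower in each pair though the groups overlap. Palb2, the protein that bridges Brca1 and Brca2, differed by -0.41 ± 0.19, with all hypoxic arrays below all normoxic ones. The remaining 4 were closer to 0, with Xrcc2 at -0.17 ± 0.23, Rad52 at 0.08 ± 0.23, Rad51ap1 at 0.13 ± 0.20 and Rad51d at 0.27 ± 0.19. Xrcc2, Rad51d and Rad51ap1 act in strand exchange, and Rad52 anneals single strands.

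All 3 Fanconi genes and 4 of 6 break sensing genes lay below 0. Fancd2, which is ubiquitylated at stalled forks and crosslinks, read 7.01, 6.73 and 6.66 in hypoxic regions against 7.65, 6.96 and 8.02 in normoxic regions, a difference of -0.74 ± 0.26, and without tumour 3 it was -0.43. Fancc and Fanca, of the complex that modifies Fancd2, differed by -0.55 ± 0.26 and -0.31 ± 0.25, and Fanca was higher in the hypoxic region of tumour 1. Chek1, the kinase that halts the cycle at damaged forks, read 5.17, 5.72 and 5.39 in hypoxic and 5.79, 5.98 and 6.18 in normoxic regions, with no overlap and a difference of -0.56 ± 0.20. Chek2, the other checkpoint kinase, differed by 0.12 ± 0.28 and Atm, the kinase that signals breaks, by -0.55 ± 0.29. In the complex that holds broken ends, Mre11 differed by -0.40 ± 0.22, Rad50 by -0.39 ± 0.27 and Nbn by 0.04 ± 0.45. Nbn varied widely among normoxic regions, as its values given with the cultures further on show.

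End joining, mismatch repair, excision repair and direct reversal lay nearer to all genes, and none of their genes reached an unadjusted p under 0.05. Xrcc5, the larger Ku subunit that grips broken ends, read 5.70, 6.12 and 6.08 in hypoxic and 6.24, 5.65 and 7.60 in normoxic regions. Its difference of -0.53 ± 0.37 rested on the normoxic array of tumour 3 and was -0.04 without that tumour. Parp1, the sensor of strand breaks, behaved likewise, at 7.35, 7.45 and 7.34 in hypoxic and 7.55, 7.28 and 8.76 in normoxic regions, a difference of -0.48 ± 0.33 that became -0.01 without tumour 3. Msh3, which recognises loops of unpaired bases, read 5.72, 5.76 and 6.13 in hypoxic against 6.02, 6.12 and 6.32 in normoxic regions, lower in each pair at -0.28 ± 0.18. Ercc1, part of the nuclease that cuts beside bulky lesions, read 8.11, 8.03 and 8.10 in hypoxic and 8.62, 7.48 and 8.91 in normoxic regions (-0.26 ± 0.29), and its difference was 0.02 without tumour 3. Mgmt, which takes alkyl groups off guanine, read 6.03, 5.86 and 5.84 in hypoxic and 5.44, 5.59 and 5.81 in normoxic regions. It was the only one of the 38 whose hypoxic arrays all lay above its normoxic ones, at 0.30 ± 0.20, against 11.3% of all genes. Route medians were -0.16 for end joining, -0.13 for mismatch repair and for base excision, and 0.04 for nucleotide excision. No test compared the routes with each other.

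Genes with all hypoxic arrays below all normoxic ones came from the same routes. All 3 hypoxic arrays lay below all 3 normoxic arrays in 6 genes (15.8%), namely Brca1, Brca2, Chek1, Palb2, Rad51c and Rad54l, against 5.89% of all genes. The hypoxic array was the lower one in every pair for 12 genes (31.6%, against 13.2% of all genes) and the higher one for 4, Mgmt, Rad51d, Ung and Xrcc1 (10.5%, against 21.9%). Tumour 3 weighed most on the median over the 38 genes, which was -0.17, -0.09 and -0.52 in tumours 1, 2 and 3 and -0.06 without tumour 3. In homologous recombination it was -0.56, -0.20 and -0.43, and in the Fanconi pathway -0.64, -0.23 and -0.79. Base excision ran the other way in the first 2 tumours, at 0.28, 0.07 and -0.35. End joining was at -0.02, 0.39 and -0.62, and mismatch repair at 0.39, -0.20 and -0.57. In tumour 3 both thus lay below homologous recombination, so the split from these routes was not seen there. A fit that took its spread from all 18 arrays gave the same differences and called 3 genes lower, Brca2 (adjusted p = 0.0107), Fancd2 (adjusted p = 0.0465) and Rad54l, and also 4.56% of all genes lower. That fit shares 1 spread, and the median SD over the 38 genes was 0.29 in hypoxic and 0.30 in normoxic tumour regions against 0.13 to 0.22 in the culture groups.

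**Figure D2:**
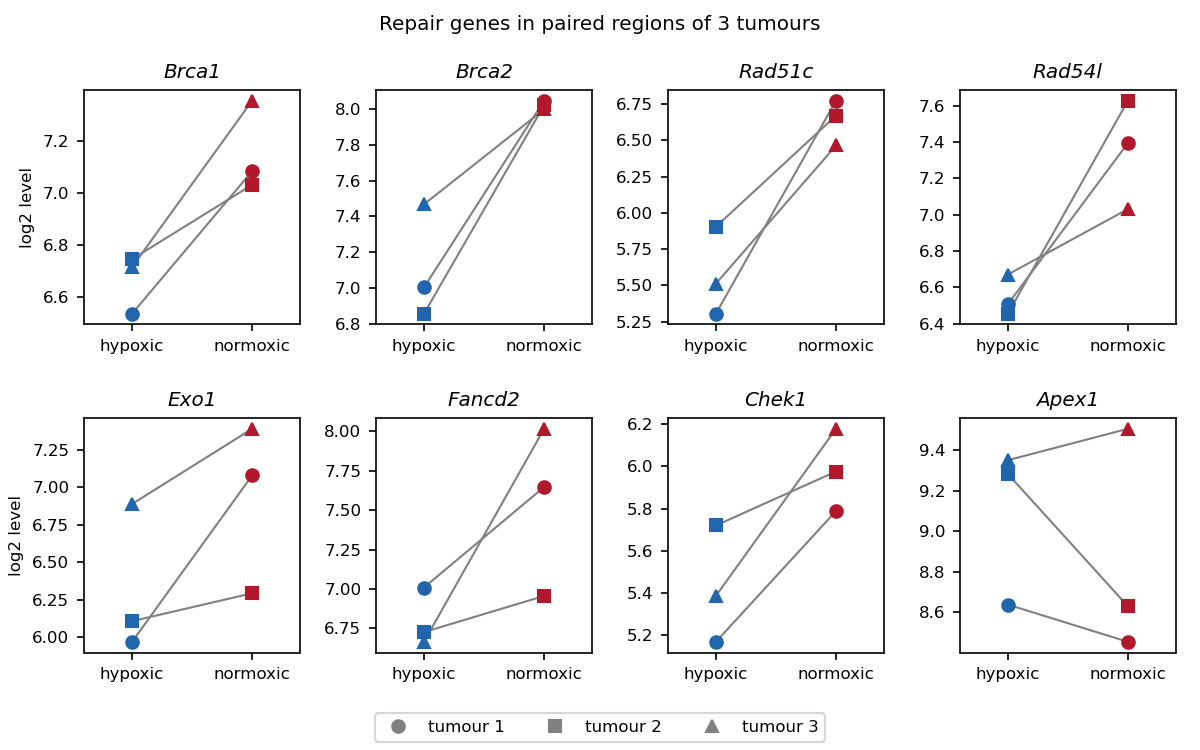
Log2 levels of 8 repair genes in the hypoxic (blue, left) and normoxic (red, right) region of each tumour, joined by a line per tumour, each panel on its own axis. Lines climb to the right in every tumour for Brca1, Brca2, Rad51c, Rad54l, Exo1, Fancd2 and Chek1, while Apex1 is higher in the hypoxic region of tumours 1 and 2.

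Most cell division genes and most immune cell markers also had negative differences in hypoxic regions, but limma called no gene in the tumour comparison. The 14 measured mitosis genes all lay below 0 in hypoxic regions, with a median of -0.83, and 16 of 20 DNA replication genes did, with a median of -0.64. By tumour the mitosis median was -0.79, -0.61 and -1.24, and the replication median -0.57, -0.13 and -1.21. Macrophage markers had 12 of 15 below 0 (median -0.51), and their median level in tumours 1, 2 and 3 was 7.42, 8.01 and 7.0 where hypoxic, against 7.86, 8.29 and 8.38 where normoxic. T and NK cell markers had 12 of 13 below 0 (median -0.49). The 9L glioma and gliosarcoma markers had 4 of 7 above 0 (median 0.17), with medians of 0.35, 0.35 and 0.02 in tumours 1, 2 and 3. Endothelium was at -0.04, skeletal muscle at 0.13 and adipocytes at 0.15. The part of these cells in the repair differences was not tested. All 13 measured HIF targets lay above 0 (median 1.90), and the 10 p53 targets had a median of -0.15.

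Of 60 further repair genes, 39 lay below 0 in hypoxic tumour regions with a median of -0.22, and limma called none. At an unadjusted p under 0.05 there were 8, all lower, against 7.06% of all genes lower and 3.27% higher. They are named here after their values were seen. They were -1.74 ± 0.20 for Pcna, the sliding clamp of replication, -1.21 ± 0.18 for Rad1 of the checkpoint clamp, -1.20 ± 0.39 for Rbbp8, which starts end resection, -1.08 ± 0.27 for Ube2t, which ubiquitylates Fancd2, and -1.06 ± 0.29 for Usp1, which reverses that step. Aplf of end joining was at -0.67 ± 0.19, Mdc1, the scaffold at breaks, at -0.65 ± 0.21, and Mnat1 of the transcription and repair factor TFIIH at -0.47 ± 0.19.

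**Figure D3:**
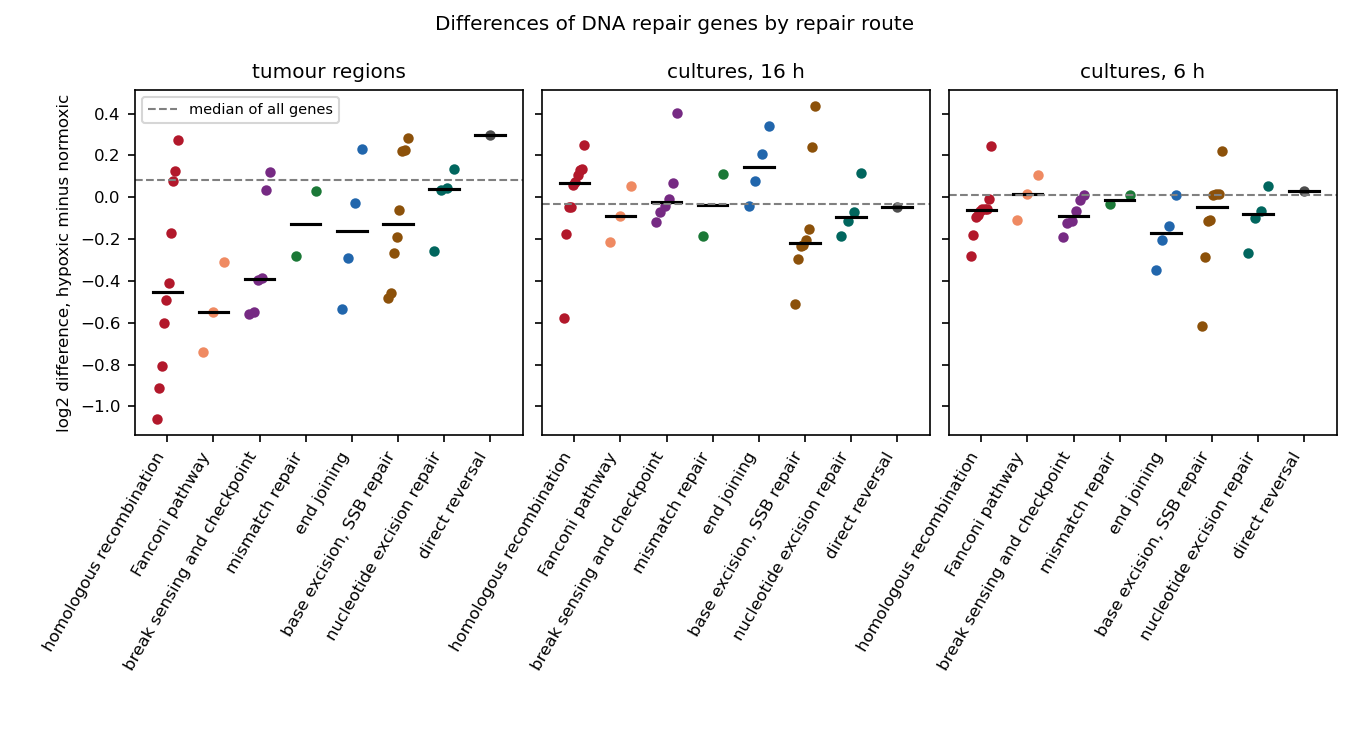
Fitted log2 difference, hypoxic minus normoxic, of each repair gene by route in tumour regions, 16 h cultures and 6 h cultures. Points are genes, black bars route medians and the dashed line the median of all genes. In tumour regions the medians of homologous recombination (-0.45), the Fanconi pathway (-0.55) and break sensing (-0.39) lie below those of the other routes, and in cultures the medians of all routes lie within 0.22 of 0.

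In culture, no repair gene passed the test at either time. After 16 h of hypoxia limma called 0 of 38 genes, against 0.942% of all genes, and after 6 h 0 of 38, against 0.286%. Medians over the 38 genes were -0.04 at 16 h and -0.07 at 6 h, against -0.03 and 0.01 over all genes. At an unadjusted p under 0.05, 3 genes were higher and 2 lower at 16 h (7.89% and 5.26%, against 5.15% and 4.54% of all genes), and 0 were higher and 2 lower at 6 h (0% and 5.26%, against 3.16% and 2.35%). Hypoxic values all lay below normoxic ones in 4 genes at 16 h (Apex1, Fanca, Parp1 and Parp2, 10.5% against 9.19% of all genes) and in 4 at 6 h (Apex1, Brca2, Mre11 and Xrcc6, 10.5% against 4.67%). They all lay above in 2 genes at 16 h (Xrcc1 and Xrcc4, 5.26% against 7.5%) and in Xrcc1 at 6 h (2.63% against 5.58%).

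Apex1, the endonuclease that cuts at abasic sites, had a negative difference at both times. It read 9.16, 8.95 and 9.58 in hypoxic 16 h cultures 22, 28 and 29, against 9.58, 9.75 and 9.88 in normoxic ones, and 9.10, 9.82 and 9.58 in hypoxic 6 h cultures 6, 13 and 26, against 10.22, 10.26 and 9.88 in normoxic ones. Hypoxic and normoxic values did not overlap at either time, and the differences were -0.51 ± 0.19 at 16 h and -0.62 ± 0.19 at 6 h (adjusted p = 0.431 and 0.662). Xrcc1, the scaffold of single-strand break repair, ran the other way, at 7.67, 7.58 and 7.60 in hypoxic against 7.28, 7.08 and 7.18 in normoxic 16 h cultures, a difference of 0.44 ± 0.11 with an adjusted p of 0.104. It passed the test (the only gene of the list to do so) when arrays were centred on their medians, where 0.922% of all genes were called higher. At 6 h it read 7.51, 7.45 and 7.73 in hypoxic and 7.40, 7.19 and 7.45 in normoxic cultures (0.22 ± 0.11), again without overlap. Xrcc4, the scaffold of the end joining ligase, read 7.74, 7.61 and 7.52 in hypoxic and 7.08, 7.34 and 7.42 in normoxic 16 h cultures (0.34 ± 0.14), against 7.53, 7.48 and 7.0 in hypoxic and 7.54, 7.49 and 7.59 in normoxic 6 h cultures (-0.20 ± 0.14). Nbn read 8.75, 8.45 and 8.86 in hypoxic and 8.11, 8.18 and 8.57 in normoxic 16 h cultures (0.40 ± 0.15), and 8.90, 8.90 and 8.72 in hypoxic and 9.03, 8.88 and 8.59 in normoxic 6 h cultures (0.01 ± 0.15). Parp2, a second break sensor, differed by -0.30 ± 0.10 at 16 h and 0.01 ± 0.10 at 6 h, and Xrcc6, the smaller Ku subunit, by -0.04 ± 0.15 at 16 h and -0.35 ± 0.15 at 6 h.

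Brca1, Brca2, Rad51c and the Fanconi gene Fancd2, all lower in hypoxic tumour regions, had smaller differences in culture. Brca1 read 8.81, 8.23 and 8.74 in hypoxic and 8.19, 8.50 and 8.35 in normoxic 16 h cultures, and 8.21, 8.54 and 8.33 in hypoxic and 8.46, 8.53 and 8.26 in normoxic 6 h cultures. Its differences were 0.25 ± 0.15 (95% interval -0.08 to 0.58) and -0.05 ± 0.15 (-0.38 to 0.27). Brca2 read 9.10, 8.76 and 8.94 in hypoxic and 8.73, 9.02 and 8.82 in normoxic 16 h cultures, and 8.23, 8.26 and 8.20 in hypoxic and 8.52, 8.44 and 8.29 in normoxic 6 h cultures. Those differences were 0.07 ± 0.11 (-0.17 to 0.32) and -0.18 ± 0.11 (-0.43 to 0.06), and at 6 h the hypoxic values all lay below the normoxic ones. Fancd2 differed by 0.06 ± 0.11 at 16 h and 0.11 ± 0.11 at 6 h, with intervals of -0.19 to 0.30 and -0.13 to 0.35. Rad51c read 8.50, 7.08 and 8.76 in hypoxic and 8.58, 8.66 and 8.84 in normoxic 16 h cultures, and 7.75, 8.74 and 8.27 in hypoxic and 8.80, 8.82 and 7.98 in normoxic 6 h cultures. The 16 h difference of -0.58 ± 0.37 came mainly from hypoxic culture 28 and was -0.06 without it. With 1 array left out in turn, the 6 h difference of Rad51c ranged from -0.56 to -0.03.

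**Figure D4:**
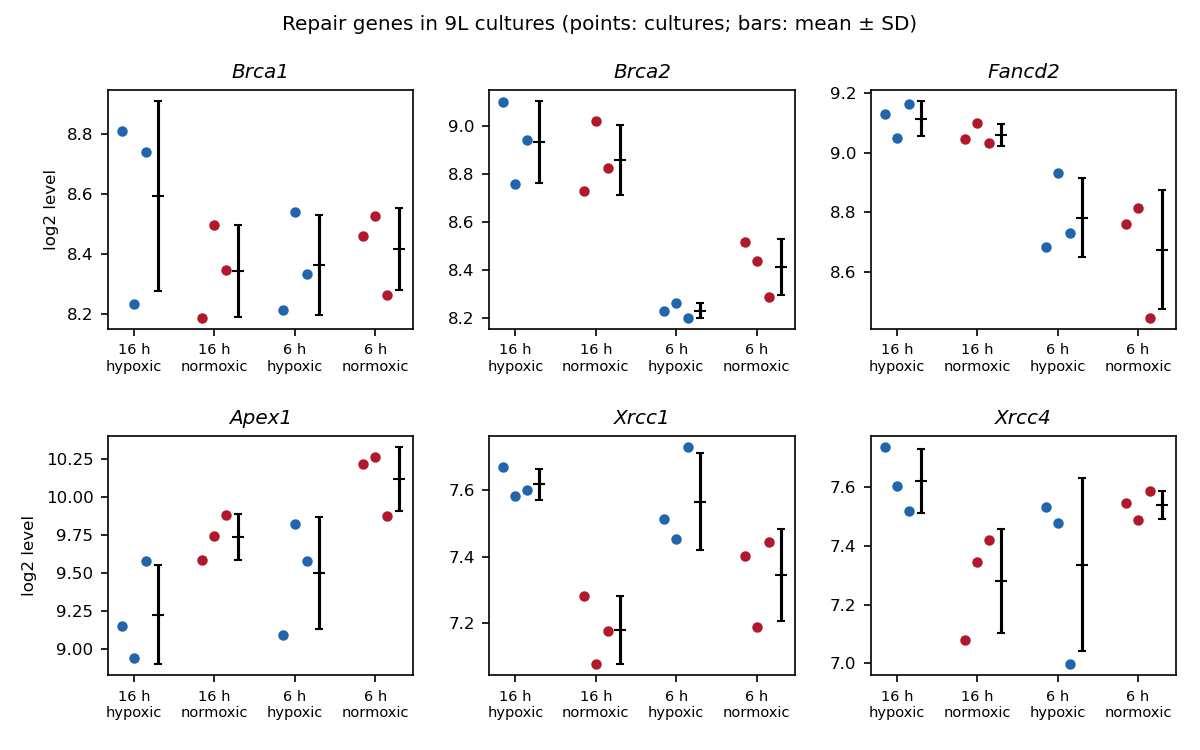
Log2 levels of 6 repair genes in the 12 cultures, with hypoxic cultures in blue and normoxic cultures in red, 16 h to the left of 6 h, and the mean ± SD (n = 3) beside each group. Apex1 is lower and Xrcc1 higher in hypoxic cultures at both times without overlap, and Brca2 and Fancd2 are higher in the 16 h cultures than in the 6 h cultures at each oxygen level.

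The genes with the largest 16 h difference in the other routes gave smaller values. Msh3 read 7.03, 6.5 and 7.0 in hypoxic and 7.06, 7.13 and 6.91 in normoxic 16 h cultures, and 7.56, 7.31 and 7.15 in hypoxic and 7.35, 7.24 and 7.53 in normoxic 6 h cultures. Fanca read 6.68, 6.48 and 6.75 in hypoxic and 6.93, 6.77 and 6.85 in normoxic 16 h cultures, and 6.51, 6.74 and 6.47 in hypoxic and 6.86, 6.72 and 6.47 in normoxic 6 h cultures. Xpa, which verifies the lesion in nucleotide excision, read 6.39, 6.25 and 6.31 in hypoxic and 6.26, 6.69 and 6.55 in normoxic 16 h cultures, and 6.76, 6.37 and 5.87 in hypoxic and 6.44, 6.33 and 7.04 in normoxic 6 h cultures. Groups overlapped in these 3 genes except for Fanca at 16 h. The differences were -0.19 ± 0.15 at 16 h and -0.03 ± 0.15 at 6 h for Msh3, -0.22 ± 0.12 and -0.11 ± 0.12 for Fanca, and -0.18 ± 0.21 and -0.27 ± 0.21 for Xpa. Mgmt read 5.06, 4.99 and 5.17 in hypoxic and 5.20, 5.17 and 4.99 in normoxic 16 h cultures, and 5.13, 5.08 and 5.38 in hypoxic and 5.18, 5.26 and 5.05 in normoxic 6 h cultures, with differences of -0.05 ± 0.11 and 0.03 ± 0.11. Hypoxic culture 28 again weighed on the whole list: the median over the 38 genes was 0.10, -0.28 and 0.11 in pairs 22, 28 and 29, and 0.09 in the fit without that array. By route, the base excision median was -0.09, -0.39 and -0.16 in these pairs, and that of end joining 0.42, -0.13 and 0.11. At 16 h the mitosis genes had 13 of 14 below 0 (median -0.44), and limma called Ccnb1 (-1.0 ± 0.17) and Kif20a (-0.76 ± 0.16) lower. DNA replication genes had a median of -0.06. Of the 60 further repair genes, Polk, a polymerase that copies past damage, rose at 16 h of hypoxia by 0.79 ± 0.14 (limma adjusted p = 0.0189), and none passed at 6 h.

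No difference between the 16 h and the 6 h response was detected. An interaction contrast called 0 of 38 genes and 0% of all genes, with 1 gene of the list higher and 1 lower at an unadjusted p under 0.05 (2.63% each, against 2.13% and 2.41% of all genes). These were Xrcc4 at 0.54 ± 0.20 and Parp2 at -0.31 ± 0.14, each as the 16 h minus the 6 h response.

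In the main fit, 1 repair gene was called between the 2 sets of cultures. Brca2 was higher at 16 h than at 6 h in hypoxic cultures by 0.70 ± 0.11 (adjusted p = 0.00629) and in normoxic cultures by 0.44 ± 0.11 (adjusted p = 0.0412), the only one of 38 called in either. Of all genes, 2.7% were called in hypoxic and 4.4% in normoxic cultures, and 0.468% and 0.873% were called higher. The hypoxic call held under every alternative tried and without each array in turn. The normoxic call was lost without any one of its 6 arrays, at 0.36 to 0.51, in the fit of 18 arrays, with a trended variance and with median centring. Fancd2 had 0.33 ± 0.11 in hypoxic and 0.39 ± 0.11 in normoxic cultures (adjusted p = 0.133 and 0.0652). Other scalings called it higher, in normoxic cultures with quantile normalization (0.49) and cyclic loess (0.51) and in hypoxic ones with cyclic loess (0.43). Of all genes, 0.559%, 0.663% and 0.831% were called higher there. In normoxic cultures median centring, where the Brca2 call was lost, called Nbn (-0.63) and Lig4 (-0.59) lower, against 6.38% of all genes. Lowest in the list was Ercc1, at -0.85 ± 0.27 and -0.81 ± 0.27 in hypoxic and normoxic cultures (adjusted p = 0.111 and 0.103). Without hypoxic 16 h culture 29 it was -1.14 in hypoxic cultures and called lower, against 2.8% of all genes. Among the further repair genes, Cdk7 of TFIIH and Nthl1, which removes oxidised pyrimidines, were called lower at both oxygen levels, by -0.61 for Cdk7 in each and by -0.49 ± 0.11 and -0.51 ± 0.11 for Nthl1 in hypoxic and normoxic cultures. Cultures of the 2 times share no culture number, so time and culture batch cannot be told apart.

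Set against the mean culture response, the tumour response was most negative in Brca2, Fancd2 and Rad54l, and none of the 38 genes passed the test. An interaction contrast over 9 pairs called 0 of 38 genes, against 1.48% of all genes. Brca2 stood at -0.86 ± 0.19 (adjusted p = 0.0613), Rad54l at -0.82 ± 0.18 (0.0631), Fancd2 at -0.82 ± 0.22 (0.118), Exo1 at -0.60 ± 0.23 (0.234) and Brca1 at -0.59 ± 0.20 (0.196). With Chek1 at -0.44 ± 0.19 they make 6 lower genes at an unadjusted p under 0.05 (15.8%, against 9.51% of all genes). The other way lay Apex1 at 0.79 ± 0.24 and Rad51d at 0.39 ± 0.16 (5.26%, against 8.77%). Apex1 thus had a positive difference in tumours (0.23 ± 0.22) and negative ones in cultures, and its tumour values were 8.64, 9.28 and 9.35 in hypoxic and 8.46, 8.63 and 9.51 in normoxic regions. The count of calls depended on the fit: without culture numbers as blocks, Brca2, Rad54l and Fancd2 were called lower, 7.89% of the list against 3.25% of all genes. Pairs of genes (5.26% of the list) were called lower when 1 tumour was left out: Brca2 and Rad54l without tumour 3 (1.72% of all genes), Fancd2 and Atm without tumour 2 (4.55%), and Rad50 and Nbn without tumour 1 (2.76%). Further repair genes called in the main fit were Pcna (-1.64 ± 0.21) and Aplf (-0.85 ± 0.16), both lower.

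Most repair genes read lower in tumours than in cultures. limma called 28 of 38 genes lower and 3 higher in hypoxic tumour regions against hypoxic cultures, and 27 lower and 2 higher in normoxic tumour regions against normoxic cultures (3 tumour against 6 culture arrays each). The background was large, with 29.1% of all genes lower and 50.8% higher in the hypoxic comparison, and 27.3% lower and 42.7% higher in the normoxic one. The share of repair genes called lower was 73.7% and 71.1%. The median over the 38 genes was -1.26 under hypoxia and -1.07 under normoxia, against 0.32 and 0.21 over all genes. Route medians under normoxia were -1.72 for break sensing, -1.30 for mismatch repair, -1.20 for end joining, -1.07 for base excision, -0.80 for nucleotide excision, -0.62 for homologous recombination, -0.29 for the Fanconi pathway and 0.47 for Mgmt. Every tumour array lay below every culture array of its oxygen level in 27 genes under hypoxia and 26 under normoxia, against 23% and 22.7% of all genes. Every tumour array lay above them in Mgmt under hypoxia and in Mgmt and Xrcc1 under normoxia, against 43.8% and 33.5% of all genes. Array medians were 6.36 to 6.5 in tumours and 6.02 to 6.19 in cultures, and the scaling of arrays decided some calls. In hypoxic samples 27 of the 28 lower calls and none of the 3 higher calls held under every alternative, and in normoxic samples 25 of 27 lower and neither higher call did. The calls lost were those of Lig4, Rad51d, Xrcc1 and Mgmt in hypoxic samples and of Brca2, Apex1, Xrcc1 and Mgmt in normoxic samples. Under another scaling, calls were gained by Rad52, Fanca, Apex1, Rad51ap1 and Xpc in hypoxic samples, and by Rad52, Fancc, Ung, Rad51d, Rad51ap1, Rad54l and Xpc in normoxic samples. Without 1 hypoxic tumour array, Rad52, Fanca and Rad51ap1 were called in hypoxic samples.

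**Figure D5:**
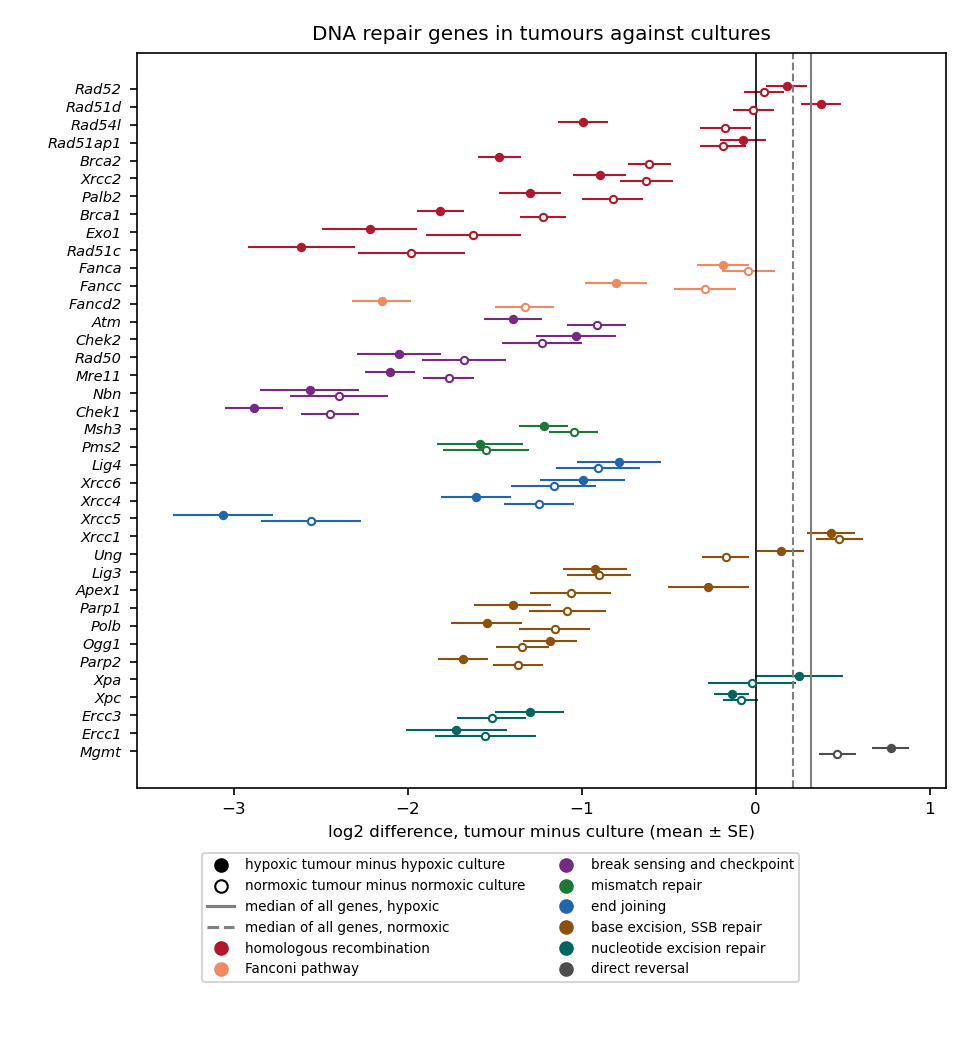
Fitted log2 difference (± SE) of each repair gene between tumour regions and cultures (3 tumour against 6 culture arrays), filled for hypoxic and open for normoxic samples, coloured by route, with the medians of all genes as grey lines. Break sensing and end joining genes lie to the left of 0, Xrcc5 farthest at -3.06 and -2.56, and Mgmt and Xrcc1 lie to the right, where their calls depend on the scaling of arrays.

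Break sensing genes were all 6 lower in tumours at both oxygen levels. Chek1 ranged from 7.87 to 8.68 (median 8.42) in the 12 cultures, far above the tumour values given earlier, and differed by -2.88 ± 0.17 under hypoxia and -2.45 ± 0.17 under normoxia (limma adjusted p = 4.36e-09 and 4.09e-08). Nbn read 6.56, 5.99 and 6.05 in hypoxic and 5.08, 6.51 and 6.90 in normoxic tumour regions, against 8.11 to 9.03 (median 8.74) in cultures, with differences of -2.56 ± 0.28 and -2.39 ± 0.28. Its partner Mre11 read 6.07, 6.39 and 6.89 in hypoxic and 6.88, 6.74 and 6.93 in normoxic tumour regions, against 8.40 to 8.86 (median 8.57) in cultures. Rad50 read 8.18, 7.28 and 8.41 in hypoxic and 7.83, 8.08 and 9.11 in normoxic tumour regions, against 9.88 to 10.15 (median 10.02) in cultures. No tumour array reached the lowest culture for any of the 3 subunits. Atm read 6.19, 6.84 and 6.28 in hypoxic and 7.21, 6.58 and 7.17 in normoxic tumour regions, against 7.58 to 8.19 (median 7.86) in cultures. Chek2 read 5.97, 5.85 and 5.90 in hypoxic and 5.76, 5.13 and 6.48 in normoxic tumour regions, against 6.44 to 7.36 (median 6.98) in cultures, and only its normoxic tumour 3 array came above the lowest culture.

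The 4 end joining genes and both mismatch repair genes were lower as well. Xrcc5 ranged from 8.57 to 9.34 (median 9.11) in cultures and differed from tumours by -3.06 ± 0.29 under hypoxia and -2.56 ± 0.29 under normoxia, the most of the list. Its Ku partner Xrcc6 read 6.63, 7.85 and 7.04 in hypoxic and 6.54, 7.52 and 7.53 in normoxic tumour regions, against 7.85 to 8.63 (median 8.29) in cultures. The ligase pair followed. Xrcc4 read 5.45, 5.93 and 6.24 in hypoxic and 5.59, 6.29 and 6.62 in normoxic tumour regions, against 7.0 to 7.74 (median 7.50) in cultures. Lig4, the ligase that seals joined ends, read 6.53, 7.66 and 6.23 in hypoxic and 6.38, 6.37 and 6.97 in normoxic tumour regions, against 7.15 to 8.08 (median 7.57) in cultures, and its hypoxic tumour 2 array lay among the cultures. Its hypoxic difference of -0.79 ± 0.24 was -0.50 and not called without tumour 3. Pms2, the mismatch endonuclease subunit, read 7.50, 6.55 and 6.24 in hypoxic and 6.42, 6.59 and 7.20 in normoxic tumour regions, against 7.88 to 8.73 (median 8.32) in cultures. Msh3 ranged from 6.5 to 7.56 (median 7.14) in cultures and differed by -1.22 ± 0.14 and -1.05 ± 0.14 under hypoxia and normoxia.

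Homologous recombination was split. Under hypoxia 7 of 10 genes were called lower and 1 higher, and under normoxia 6 lower. Rad51c ranged from 7.08 to 8.84 (median 8.62) in cultures (-2.61 ± 0.31 under hypoxia, -1.98 ± 0.31 under normoxia), Exo1 from 7.84 to 8.93 (median 8.61) (-2.22 ± 0.27 and -1.62 ± 0.27) and Brca1 from 8.19 to 8.81 (median 8.40) (-1.81 ± 0.13 and -1.22 ± 0.13). In these 3 every tumour array lay below every culture. Brca2 ranged from 8.20 to 9.10 (median 8.62) in cultures and differed by -1.47 ± 0.12 under hypoxia and -0.61 ± 0.12 under normoxia. The normoxic difference was -0.08 with quantile normalization and -0.10 with cyclic loess, and not called in either. Palb2 read 5.05, 5.06 and 5.02 in hypoxic and 5.57, 5.21 and 5.59 in normoxic tumour regions, against 5.98 to 6.82 (median 6.22) in cultures. Xrcc2 read 6.65, 6.67 and 6.93 in hypoxic and 7.23, 6.88 and 6.65 in normoxic tumour regions, against 7.25 to 8.04 (median 7.61) in cultures. Rad54l was called lower in the hypoxic comparison, by -0.99 ± 0.15, and stood at -0.17 ± 0.15 in the normoxic one, where it was called lower with median centring (-0.49). Its cultures ranged from 7.13 to 7.73 (median 7.57). Rad51d read 6.99, 7.54 and 7.33 in hypoxic and 6.92, 7.08 and 7.04 in normoxic tumour regions, against 6.80 to 7.23 (median 6.96) in cultures. It was called higher in hypoxic tumour regions against hypoxic cultures, by 0.38 ± 0.12 (adjusted p = 0.0077). That call was lost without the hypoxic array of tumour 2 (0.25), with cyclic loess (0.16) and with median centring (0.02), and with median centring Rad51d was called lower in normoxic samples (-0.33). Rad52 and Rad51ap1 were called in neither comparison, with differences from -0.19 to 0.18. Rad52 was called higher in both with quantile normalization (0.74 under hypoxia and 0.52 under normoxia) and cyclic loess (0.65 and 0.47), and Rad51ap1 lower in both with median centring (-0.43 and -0.50).

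Among the Fanconi genes, Fancd2 ranged from 8.45 to 9.17 (median 8.98) in cultures and differed from tumours by -2.15 ± 0.17 under hypoxia and -1.33 ± 0.17 under normoxia. Fancc read 5.20, 6.15 and 5.34 in hypoxic and 6.33, 6.09 and 5.92 in normoxic tumour regions, against 6.18 to 6.68 (median 6.30) in cultures, and was called lower in the hypoxic comparison (-0.80 ± 0.18), against -0.29 ± 0.18 in the normoxic one. With quantile normalization, cyclic loess and median centring its normoxic difference was -0.60, -0.74 and -0.61, and called. Fanca was not called at -0.19 ± 0.15 under hypoxia and -0.04 ± 0.15 under normoxia, but under hypoxia these scalings gave -0.47, -0.62 and -0.54, all called lower. Both comparisons were tested separately. The difference between them in a gene is the tumour response minus the culture response given earlier.

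In base excision, 5 of 8 genes under hypoxia and 6 under normoxia were called lower, and Xrcc1 higher in both. Parp2 read 7.25, 7.14 and 7.38 in hypoxic and 7.99, 7.19 and 7.97 in normoxic tumour regions, against 8.64 to 9.15 (median 9.06) in cultures. Polb, the polymerase that fills the gap, read 5.98, 6.00 and 6.22 in hypoxic and 5.60, 6.79 and 6.61 in normoxic tumour regions, against 7.17 to 7.80 (median 7.58) in cultures. Ogg1, which removes oxidised guanine, read 6.71, 6.55 and 6.53 in hypoxic and 6.61, 6.52 and 6.84 in normoxic tumour regions, against 7.29 to 8.49 (median 7.84) in cultures. These 3 showed no overlap. Lig3, the ligase that works with Xrcc1, read 7.61, 7.06 and 7.06 in hypoxic and 7.10, 7.19 and 8.01 in normoxic tumour regions, against 7.81 to 8.45 (median 8.28) in cultures. Parp1 ranged from 8.40 to 9.24 (median 8.87) in cultures and differed by -1.40 ± 0.22 and -1.08 ± 0.22 under hypoxia and normoxia, with the normoxic tumour 3 array among the cultures. Apex1 ranged from 8.95 to 10.26 (median 9.67) in cultures and was called lower in the normoxic comparison, at -1.06 ± 0.23, and stood at -0.27 ± 0.23 in the hypoxic one. Its direction depended on scaling: with quantile normalization it was -0.37 and not called in normoxic samples and 0.52 and called higher in hypoxic samples, while with median centring it was -0.63 and called lower in hypoxic samples. Xrcc1 read 8.31, 8.14 and 7.62 in hypoxic and 7.70, 7.95 and 7.57 in normoxic tumour regions, against 7.08 to 7.73 (median 7.45) in cultures, with differences of 0.43 ± 0.14 and 0.48 ± 0.14. With median centring these were 0.08 and 0.17 and not called, and without the hypoxic array of tumour 1 the hypoxic one was 0.29 and not called. Ung, which removes uracil, was called in neither, but with quantile normalization, cyclic loess and median centring it was called lower under normoxia, at -0.42, -0.53 and -0.48.

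In nucleotide excision, 2 of 4 genes were called lower in both comparisons. Ercc1 ranged from 8.75 to 10.64 (median 9.95) in cultures and differed by -1.72 ± 0.29 under hypoxia and -1.55 ± 0.29 under normoxia. Ercc3, the TFIIH helicase, read 7.36, 6.56 and 6.51 in hypoxic and 6.79, 6.70 and 6.55 in normoxic tumour regions, against 7.49 to 8.57 (median 8.14) in cultures. Xpc, which recognises damage, and Xpa were called in neither comparison, but with median centring Xpc was called lower under hypoxia (-0.49) and normoxia (-0.40). Mgmt ranged from 4.99 to 5.38 (median 5.15) in cultures, below every tumour value, and was higher in tumours by 0.78 ± 0.11 under hypoxia and 0.47 ± 0.11 under normoxia (adjusted p = 1.26e-05 and 0.00139). It is the only one of the 38 genes in the dimmest quartile of mean level, where 82.9% of all genes were called higher under hypoxia and 59.8% under normoxia. With cyclic loess its differences were 0.15 and 0.02 and not called. With arrays centred on their medians, the counts of higher and lower calls became 1 and 32 under hypoxia, against 26.2% and 37.3% of all genes, and 0 and 33 under normoxia, against 15.7% and 36.4%. The median of all genes became -0.04 and -0.10.

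Tumours and cultures also differed in cell division genes, host cell markers and brightness. Under normoxia, 27.3% of all genes were called lower and 42.7% higher. Mitosis genes were called lower in 14 of 14 (median -1.39), and DNA replication genes in 16 of 20 (median -1.05). Macrophage markers were called higher in 14 of 15 (median 2.71). Their median level was 7.0 to 8.01 in hypoxic and 7.86 to 8.38 in normoxic tumour regions, against 5.31 to 5.76 in cultures. T and NK cell markers were called higher in 13 of 13 (median 1.48), endothelium in 6 of 6, adipocytes in 7 of 7 and skeletal muscle in 7 of 8. Of the 7 markers of 9L cells, 4 were called higher and 1 lower (median 0.51). The part of host RNA in the repair differences was not tested. In quartiles of the mean level, a split chosen after the data were seen, from dim to bright, the median of all genes was 0.34, 0.50, -0.05 and -0.89 under normoxia. Of the 24 repair genes in the third quartile, 18 were called lower, against 33.7% of all its genes, with a median of -1.16. In the brightest quartile 8 of 9 were, against 69.5%. Under hypoxia the medians of all genes were 0.52, 0.67, -0.04 and -1.05 from dim to bright. There 19 of 24 repair genes in the third quartile were called lower, against 36.1% of all its genes. In the brightest quartile 7 of 9 were, close to the 73.8% of all its genes.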

How the data were processed

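Rat Gene 1.0 ST arrays measured RNA in 18 samples (6 groups of 3). The deposited values are log2 probe set levels made by the authors. The submitters' processing notes name RMA and Partek 6.5b. Values range from 2.16 to 13.8, and no source used here says whether all arrays were normalized together. Genes were named through the platform's annotation: 15097 of 27363 probe sets carry 1 symbol, 323 several and 11943 are unlisted. A gene stands for its probe set with the highest mean. limma 3.58.1 (R 4.3.3) was fitted to all probe sets, with Benjamini-Hochberg adjustment and a threshold of 0.05, in 9 comparisons: tumours with the tumour as a block, cultures as 4 groups, responses over 9 pairs as blocks, and tumours against cultures as 6 groups. The number of arrays limits the precision. Calculations were tested on simulated data.

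The members and lists were chosen with earlier results of these data known. Values in every sample are given for members past the threshold, for the member of each route with the largest difference in tumours and in 16 h cultures, and for Brca1 and Brca2. From other lists at most 4 called genes per direction are named, and Car9 and Vegfa are checks. Other genes shown with their values were picked after those values were seen.

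Deviations of same-numbered arrays correlated at 0.130 to 0.307 at 16 h, 0.125 to 0.193 at 6 h and, from the same animal, 0.0357 to 0.273 in tumours. A different number correlated more for tumour 2 (0.167) and 6 h culture 6 (0.177). Alternatives covered normalization, the filter on dim probe sets, the variance prior, the summary per gene, the replicate block, the arrays fitted, array weights and leaving out each array. Promoters of Polb, Xrcc2, Nbn, Xpa and Chek2 were not used here.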

Additional observations from a re-analysis of the deposited data

Results flagged for a closer look

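In 3 of the 38 repair genes, every tumour and every 16 h culture pair differed in opposite directions between hypoxic and normoxic samples (7.89%, against 6.69% of all genes). That share is close to the one over all genes, so the count does not set repair genes apart. The difference between the 2 sets was not tested for this selection. Rad54l, the strand exchange motor, had differences of -0.89, -1.17 and -0.36 in tumours 1, 2 and 3 and of 0.02, 0.02 and 0.28 in 16 h culture pairs 22, 28 and 29. The tumour mean minus the culture mean was -0.91. Ung, which removes uracil, had 0.50, 0.09 and 0.07 in tumours and -0.11, -0.17 and -0.33 in culture pairs, with a tumour minus culture value of 0.43. Xrcc4, the end joining scaffold, had -0.14, -0.35 and -0.38 in tumours and 0.66, 0.26 and 0.10 in culture pairs, with a tumour minus culture value of -0.63. None of the single differences passed limma's test. At 6 h the fitted difference of Xrcc4 was -0.20, the sign of the tumours.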

How the results depend on the processing

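The number of arrays limits the precision. With all 18 arrays, which leave more arrays to estimate the spread, the tumour comparison called 3 members (Brca2, Rad54l and Fancd2), all lower, and 4.56% of all genes lower. For the changes below the cause was not tested. Median centring called 1 member at 16 h. For normoxic cultures at 16 h minus 6 h, quantile normalization and cyclic loess called 2 members (Brca2 and Fancd2, both higher). The mean per gene also called 2 (Brca2 higher and Nbn lower), as did median centring (Nbn and Lig4, both lower). The trended and the 18-array fits called 0. Leaving out 1 array called 0 to 1, which was Nbn, lower. For hypoxic cultures cyclic loess called 2 (Brca2 and Fancd2, both higher), and leaving out 1 array 1 to 2, with Ercc1 the added one, lower. For the tumour minus the culture response, quantile normalization and the mean per gene called 2, cyclic loess and median centring 1, and leaving out 1 pair 0 to 2. Without a replicate block for culture numbers, 3 were called. Over all alternatives the share of all genes called ranged from 0.188% to 6.76%, 0.140% to 3.60% and 0.216% to 5.87% in these last 3 comparisons. The replicate block in the 16 h, 6 h and interaction comparisons left the members called at 0; probe sets called at 16 h numbered 268 with it and 193 without it. No paired analysis was possible because groups share no numbers in the 16 h minus 6 h and tumour minus culture comparisons.

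Signs turned in these cases. Mgmt at 6 h became -0.016 with quantile normalization, -0.012 with cyclic loess and -0.0084 with median centring, and at 16 h 0.000214 with cyclic loess. Nbn at 6 h became -0.031 with median centring. Without 1 replicate, Ercc1 in tumours ranged from -0.66 to 0.019 and, at 6 h, Nbn from -0.11 to 0.11, Brca1 from -0.14 to 0.021, Msh3 from -0.14 to 0.060 and Mgmt from -0.060 to 0.091, while Brca2 at 16 h ranged from -0.0088 to 0.16. Of the other values of single genes, 372 kept their direction and their side of the threshold and 2 came to pass it, and of the other counts and medians 151 stayed within the limits set for them. Counts for tumours against cultures stayed at 30 to 34 in hypoxic and 29 to 33 in normoxic samples, though not always with the same genes.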

Other observations

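Among 60 repair genes outside the list, 11 were called higher and 36 lower in hypoxic tumour regions against hypoxic cultures, and 7 higher and 30 lower in normoxic tumour regions against normoxic cultures. Of all genes, 50.8% were called higher and 29.1% lower under hypoxia, and 42.7% and 27.3% under normoxia. The medians of these 60 were -0.56 under hypoxia and -0.41 under normoxia. The 38 repair genes had -1.26 and -1.07, and all genes 0.32 and 0.21. The 10 measured p53 targets had medians of -0.67 under hypoxia and -0.69 under normoxia, with 9 and 6 called lower. Of 13 HIF targets, 12 were called higher with hypoxia in culture at each time. In tumours against cultures the 13 had medians of -0.53 under hypoxia and -0.33 under normoxia. Of these, 5 were called lower at each oxygen level and 1 higher under hypoxia.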
